A study of Mus musculus with 10 samples.

Results

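The genes described here are 10 cyclic nucleotide phosphodiesterases, taken by symbol from a count table of 52227 genes: *Pde4a*, *Pde4b*, *Pde4c* and *Pde4d*, *Pde1a*, *Pde1b* and *Pde1c*, *Pde3a* and *Pde3b*, and *Pde10a*. RNA-seq measured their transcripts in the cortical hem (CH) of e13.5 embryos, 5 of them wild-type and 5 *Lmx1a*-/-. The CH is a signaling center at the dorsal edge of the telencephalon, next to the choroid plexus and the future hippocampus, and Lmx1a is a LIM homeodomain transcription factor of that region. The study asked which CH genes depend on *Lmx1a*. The mutants carry the dreherJ (drJ) null allele, and the labels name no further allele and no treatment in either group. Mice were kept on a mixed C57Bl6, FVB and CD1 background. Immunostaining for Lmx1a on alternate sections set the borders of the CH, the CH was cut by laser from the remaining sections, and all pieces of 1 embryo made 1 library, so an embryo is the replicate.

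*Pde4b* was singled out because it was among the higher genes with the smallest p in mutant against wild-type CH, and the rest of the set was chosen by family with the results of that contrast known. The genotype differences of these 10 genes are therefore given as a description, with their spread and without a test. Counts of these genes past the threshold are description too. Tests are reported for other genes of cyclic nucleotide signaling and for markers of the cell types in the samples.

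Phosphodiesterases hydrolyze cAMP and cGMP, the second messengers made by adenylyl and guanylyl cyclases, and so limit how long and how far these signals act in a cell. PDE4 enzymes are specific for cAMP. PDE1 enzymes are switched on by calcium and calmodulin and hydrolyze both nucleotides, PDE3 enzymes hydrolyze cAMP and are inhibited by cGMP, and PDE10A, abundant in striatal neurons of the adult, hydrolyzes both. In neural progenitors cAMP acts mainly through protein kinase A, which phosphorylates the transcription factor CREB and restrains the Gli factors of the hedgehog pathway.

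Libraries held between 19145952 and 36462780 counts, and values are given as normalized CPM, the usual per-library scaling of counts to a common total with TMM factors (CPM). *Lmx1a* transcript was present in every library, with wild-type CH at 45.5 to 90.7 CPM and mutant CH at 89.8 to 145 CPM, and was higher in the mutants (log2 fold change 0.68, SE 0.17, FDR = 0.0658, edgeR). *Xist* was high in wild-type embryos 2 to 5 and low in the other 6 libraries, which instead held Y-linked transcripts. Genotype and fetal sex thus cannot be told apart in most of the comparison, and only wild-type embryo 1 shares its sex-linked pattern with the mutants. All 12 listed CH markers were measurable in both groups. *Lmx1a* was the 1 that rose, 6 fell and 5 did not pass, with a list median log2 fold change of -0.43 and, among those that fell, *Wnt2b* at -1.02 (FDR = 0.0120, edgeR) and *Msx1* at -2.11 (FDR = 0.0136, edgeR). The libraries also held choroid plexus, Cajal-Retzius cell and cortical transcripts in unequal amounts, given below beside the genes concerned.

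Because cAMP acts on transcription through CREB, the windows of 250 bases before the RefSeq transcription starts (GRCm38.p6) were searched for the cAMP response element TGACGTCA and its shorter core TGACG, on both strands. 8 of the 10 genes had at least 1 window, 21 windows in all, and *Pde3a* and *Pde3b* had none. The full element was in 0 of the 21 windows, and in 1.555% of the 32544 windows of all genes. The core was in 3 of the 21, against 17.85% of all windows. The homeodomain motif TAATTA, searched because Lmx1a is a homeodomain factor, was in 0 of the 21 and in 4.84% of all windows. The 3 stretches with a core are shown 5′ to 3′ on the gene's strand to let its surroundings be read, with the core in capitals as its reverse complement, which shows that each lies on the opposite strand.
Pde4b chr4:102421468-102421527 (+): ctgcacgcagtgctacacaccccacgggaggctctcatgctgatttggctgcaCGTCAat
Pde4a chr9:21184023-21184082 (+): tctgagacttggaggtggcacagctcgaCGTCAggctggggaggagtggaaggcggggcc
Pde1a chr2:80039037-80039096 (-): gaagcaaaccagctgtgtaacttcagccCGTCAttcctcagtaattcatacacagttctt
The core ended 29 bases before a *Pde4b* start, 45 bases before a *Pde4a* start and 161 bases before a *Pde1a* start. All 5 bases of the *Pde4b* core lie in an exon of the GENCODE annotation, whereas the other 2 cores lie in 0 annotated exon bases. Whether that exon begins a transcript was not examined. *Pde4b* has 4 such windows, and the other 3 lacked the core. Windows also differed in composition. The most upstream *Pde1b* window (chr15:103502784-103503033) was 67.2% G and C with 26 CpG, whereas the 4 *Pde4b* windows held 0 to 5 CpG, and the median of all windows was 52.4% G and C. Counts are per gene, so none can be assigned to one of these starts.

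*Pde4b* had the highest mutant over wild-type ratio of the 9 measurable members, 2.65-fold. The gene spans chr4:102087543-102607259 on the plus strand (GRCm38), has 13 annotated transcripts and shares no exon base with another gene. In the CH of wild-type embryos 1 to 5 it stood at 15.1, 17.0, 12.3, 14.6 and 16.3 CPM. In *Lmx1a*-/- embryos 1 to 5 it stood at 28.6, 38.3, 43.6, 47.8 and 40.8 CPM. Every mutant library lay above every wild-type library, and mutant embryo 1 was the lowest of its group. The means were 15.1 ± 1.84 and 39.8 ± 7.20 CPM (SD, n = 5 each), a log2 fold change of 1.40 with an SE of 0.14. Wild-type embryo 1, the one without *Xist*, lay inside the range of the other 4 wild-type embryos, but 1 embryo cannot separate fetal sex from genotype.

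The other PDE4 genes did not separate the genotypes. *Pde4a* was at 10.9, 8.47, 5.58, 2.75 and 8.12 CPM in wild-type and at 4.95, 9.18, 7.11, 4.68 and 9.80 CPM in mutant CH, and its log2 fold change was -0.01 (SE 0.33). The lowest value was that of wild-type embryo 4, with 53 reads. The *Pde4a* difference was -0.61 with wild-type embryo 1 alone against the mutants. It was -0.62 with the *Xist* level as a covariate and 0.55 with the choroid plexus level. *Pde4d*, a gene of 1503514 bp that overlaps 5 other annotated genes without sharing an exon base, was at 10.8, 11.2, 20.4, 23.0 and 9.37 CPM in wild-type CH. In mutant CH it was at 15.0, 9.56, 16.7, 5.42 and 11.4 CPM. The groups overlapped, wild-type embryos 3 and 4 were the highest of the 10 libraries, and the log2 fold change was -0.36 (SE 0.31). That of *Pde4d* was 0.10 with wild-type embryo 1 alone, 0.13 with the *Xist* covariate and -0.82 with the choroid plexus covariate. *Pde4c* was not tested: it had 2 reads in wild-type embryo 4, 5 reads in mutant embryo 4 and 0 in the other 8 libraries.

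Per length, the 3 measured PDE4 genes summed to 3.61 ± 0.13 CPM per kb of exon in wild-type and 5.67 ± 0.69 in mutant CH. *Pde4b* was 39.6 ± 5.36% of that sum in wild-type and 66.3 ± 8.51% in mutant CH. The share of *Pde4a* was 25.9% and 16.3%, and that of *Pde4d* was 34.5% and 17.3%. In wild-type CH the means of the 3 genes were 0.935 to 1.43 CPM per kb, with overlapping ranges. Within single wild-type embryos *Pde4b* was 1.01 to 3.84 times *Pde4a*, so above it in each, and 0.684 to 1.98 times *Pde4d*. In mutant CH *Pde4b*, at 3.77 ± 0.68 CPM per kb, stood above both others in every embryo. With the longest coding sequence in place of all exons the share of *Pde4b* changed little, to 43.3% and 70.0%. That of *Pde4a* was then lower, at 18.2% and 10.9%, and that of *Pde4d* was 38.6% and 19.0%.

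**Figure D1:**
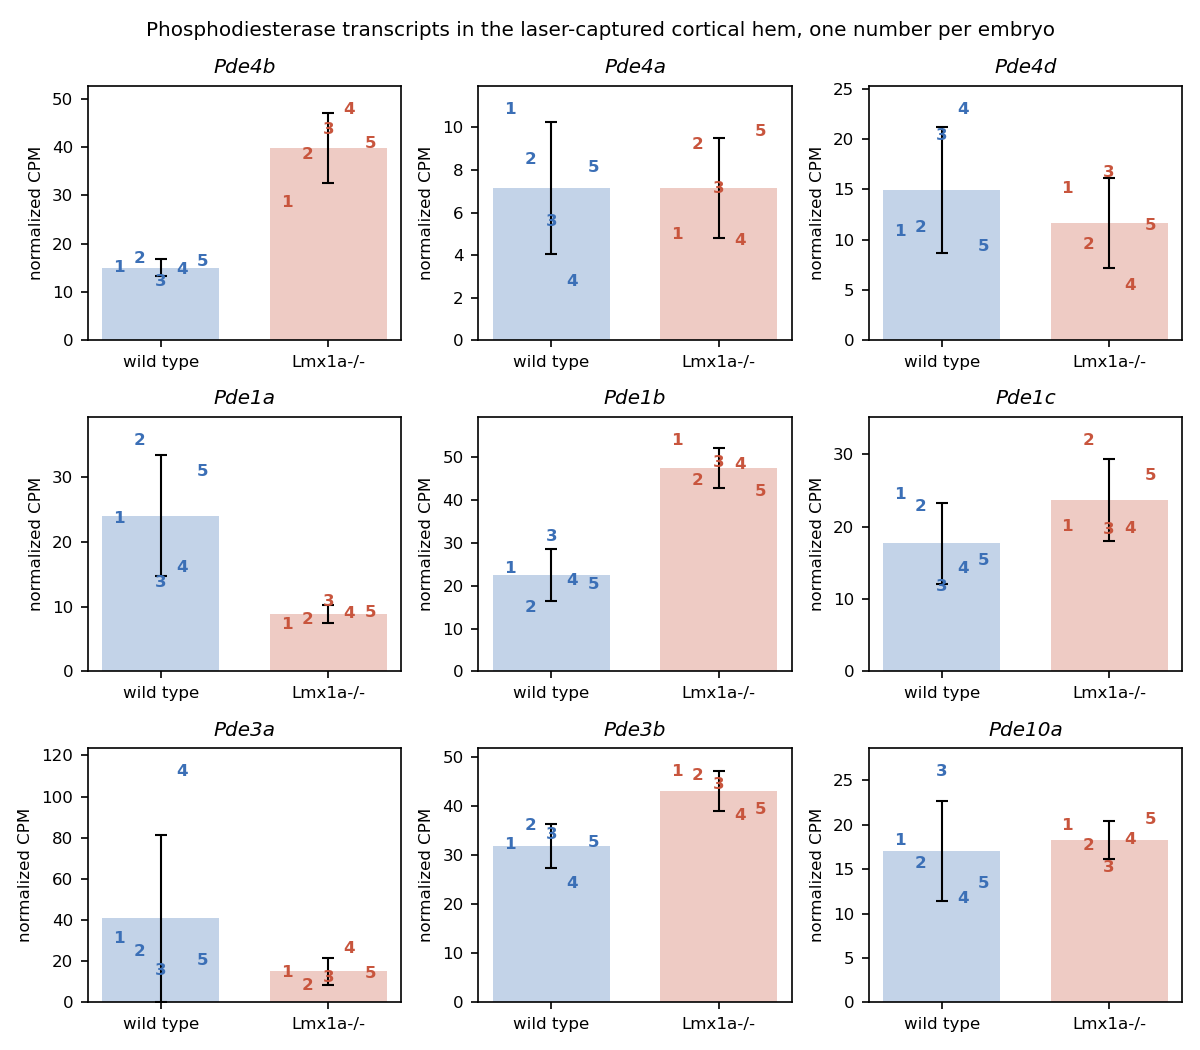
Normalized CPM of the 9 measurable phosphodiesterase genes in each library, with numbers marking embryos 1 to 5 of each genotype, bars the group mean and error bars the SD. *Pde4b*, *Pde1b* and *Pde3b* of all mutant embryos lie above those of all wild-type embryos, *Pde1a* lies below, and *Pde3a* of wild-type embryo 4 stands alone at 112 CPM.

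Among the PDE1 genes, *Pde1a* and *Pde1b* moved in opposite directions. *Pde1b* (chr15:103503034-103530052, plus strand) was at 24.1, 14.9, 31.6, 21.2 and 20.3 CPM in wild-type CH. It was at 53.9, 44.5, 48.6, 48.2 and 41.8 CPM in mutant CH. All mutant libraries lay above all wild-type libraries, and the log2 fold change was 1.08 (SE 0.16), from 22.4 ± 6.10 to 47.4 ± 4.57 CPM (SD, n = 5 each). *Pde1a* (chr2:79834453-80129458, minus strand) was at 23.7, 35.7, 13.8, 16.1 and 30.9 CPM in wild-type CH. It was at 7.24, 8.09, 10.9, 9.02 and 9.07 CPM in mutant CH. All mutant libraries lay below all wild-type libraries, the wild-type embryos differed among themselves by more than the mutants did, and the log2 fold change was -1.44 (SE 0.24). In a bulk sample, fewer cells that express a gene and less RNA per cell cannot be told apart.

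The level of *Pde1b* per length was 0.464 to 2.55 times that of *Pde1a* in wild-type CH, with a median of 1.13. In mutant CH it was 4.99 to 8.29 times that of *Pde1a*, with a median of 5.95. Neither gene was consistently the higher one in wild-type CH, whereas *Pde1b* was higher in every mutant. *Pde1c* was at 24.5, 22.8, 11.8, 14.3 and 15.3 CPM in wild-type CH and at 20.0, 32.0, 19.6, 19.8 and 27.1 CPM in the mutants, with a log2 fold change of 0.42 (SE 0.21) and overlapping groups. Its difference was -0.05 when only wild-type embryo 1 was set against the mutants, that is, among libraries with Y-linked transcripts. Summed over the family, PDE1 transcripts stood at 9.04 ± 1.05 CPM per kb in wild-type and 11.4 ± 0.60 in mutant CH.

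**Figure D2:**
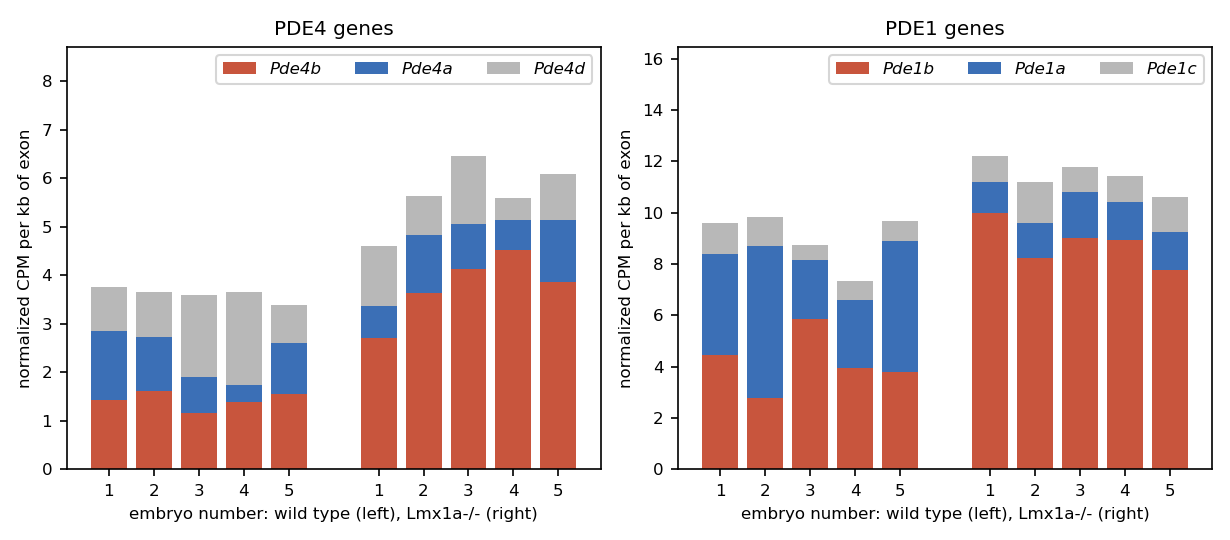
Stacked normalized CPM per kb of exon of the PDE4 genes (left panel) and PDE1 genes (right panel) in each embryo, wild type on the left of each panel and *Lmx1a*-/- on the right. The *Pde4b* segment is 39.6% of the PDE4 stack on average in wild-type and 66.3% in mutant CH, and the *Pde1a* segment of the PDE1 stack is smaller in every mutant than in any wild-type embryo.

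The PDE3 genes also differed from each other. *Pde3b* (chr7:114415281-114539251, plus strand) was at 32.1, 36.0, 34.1, 24.2 and 32.6 CPM in wild-type CH and at 47.1, 46.1, 44.4, 38.1 and 39.2 CPM in mutant CH. The groups did not overlap, with a log2 fold change of 0.43 (SE 0.11), a smaller difference than those of *Pde4b* and *Pde1b*. *Pde3a* was at 31.1, 24.6, 15.5, 112.3 and 20.3 CPM in wild-type CH and at 14.6, 8.42, 11.9, 26.1 and 14.2 CPM in mutant CH. Embryo 4 was the highest of its group in both genotypes, the groups overlapped, and the log2 fold change of -1.43 (SE 0.49) became -0.60 without wild-type embryo 4. That library was also the highest for the mesenchymal factor *Twist1*, at 57.8 CPM against 7.71 to 21.1 CPM in the other wild-type embryos, while the summed mesenchymal and meningeal markers were highest in wild-type embryo 3. Part of the exon sequence of *Pde3a* is shared with the annotated gene *Gm28523*, so its counts are less certain.

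*Pde10a* was at 18.3, 15.7, 26.0, 11.7 and 13.4 CPM in wild-type CH and at 19.9, 17.6, 15.1, 18.3 and 20.6 CPM in mutant CH. The groups overlapped, and the log2 fold change was 0.10 (SE 0.19). The striatal genes *Drd1*, *Drd2* and *Ppp1r1b*, which accompany *Pde10a* in medium spiny neurons, had too few reads to be tested. The other 7 of the 10 listed GABAergic and striatal markers, *Adora2a* among them, were measurable. The interneuron factor *Dlx5* rose from 7.71 ± 3.99 to 26.8 ± 10.8 CPM (FDR = 0.0210, edgeR's quasi-likelihood test), and summed GABAergic and striatal markers ran from 22.3 to 61.9 CPM in wild-type and from 32.9 to 166 CPM in mutant CH.

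Of the 9 measurable members, 3 lay past an FDR of 0.1 in the higher direction, namely *Pde4b*, *Pde1b* and *Pde3b*, and 1, *Pde1a*, in the lower. Over all 21664 genes tested, 1.72% were past that threshold as higher, 2.29% as lower and 4.02% in either direction. These 4 genes were also those whose libraries did not overlap, as for 4.44% of all genes, 2.17% with every mutant library above and 2.27% with every one below. As the set was chosen on this contrast, nothing is read from these shares.

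**Figure D3:**
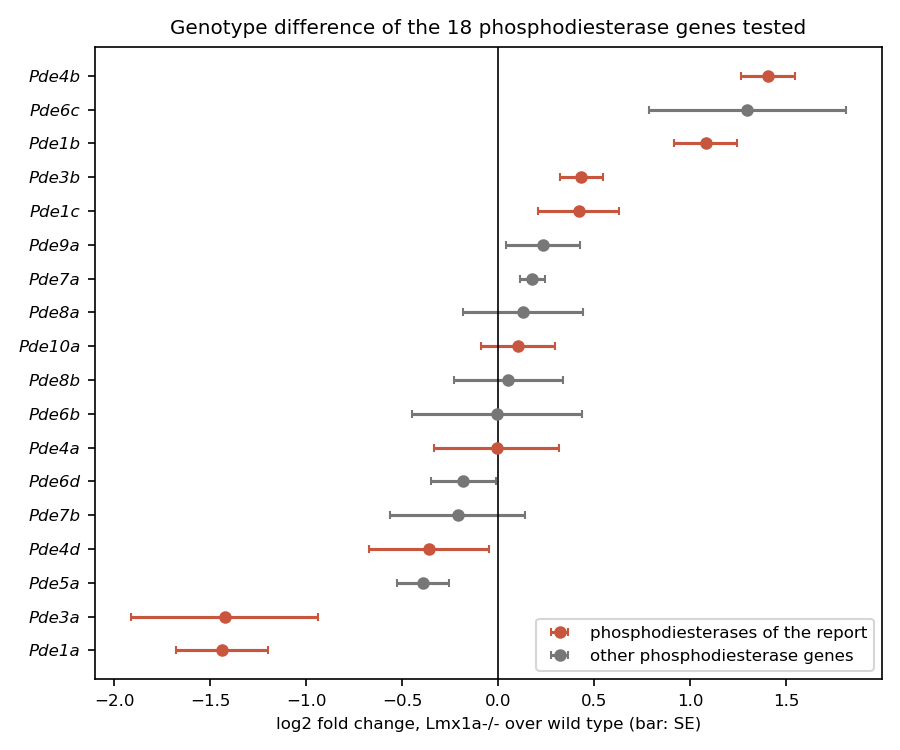
Log2 fold change of *Lmx1a*-/- over wild-type CH for the 18 phosphodiesterase genes tested, with bars for 1 SE, members in red and other phosphodiesterase genes in grey. *Pde4b* at 1.40 and *Pde1a* at -1.44 mark the ends of the range, and *Pde6c*, at 1.30, is a gene of under 1 CPM with a wide error.

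The other phosphodiesterases are no even comparison for the members, which were chosen with this contrast known. Of 14 listed, 9 were measurable and 0 passed an FDR of 0.1 in edgeR's quasi-likelihood test, while 3 had an unadjusted p under 0.05. DESeq2 called 1, *Pde5a*, as lower, and the newer dispersion method of edgeR called 1, *Pde6c*. The most abundant were the cAMP-specific *Pde7a*, with means of 163 ± 7.64 and 185 ± 11.2 CPM in wild-type and mutant CH (FDR = 0.193), and the cGMP-specific *Pde5a*, at 128 ± 28.1 and 97.6 ± 5.71 CPM (FDR = 0.163). *Pde6d*, a prenyl-binding partner without catalytic activity, was at 17.7 ± 4.16 and 15.6 ± 2.25 CPM (FDR = 0.643). Per length, *Pde7a* alone made up 34.9% of the summed level of the 17 measurable catalytic phosphodiesterases in wild-type and 36.8% in mutant CH, and *Pde5a* made up 21.3% and 15.3%. *Pde4b* accounted for 2.35 ± 0.20% and 5.82 ± 1.01%, *Pde1b* for 6.95% and 13.6%, and *Pde1a* for 6.55% and 2.27%. The sum of all 17 was 60.6 ± 3.38 CPM per kb in wild-type and 64.7 ± 1.57 in mutant CH. The sums of single embryos ran from 54.8 to 62.9 CPM per kb and from 62.3 to 66.5 CPM per kb, so the groups overlapped in their total while the share of each named member did not.

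Within wild-type CH the order of the members per length was *Pde1b* (4.15 ± 1.13 CPM per kb), *Pde1a* (4.00 ± 1.56), *Pde3b* (3.49 ± 0.50), *Pde3a* (3.20 ± 3.17), *Pde4b* (1.43 ± 0.17), *Pde10a* (1.32 ± 0.44), *Pde4d* (1.25 ± 0.52), *Pde4a* (0.935 ± 0.40) and *Pde1c* (0.883 ± 0.28). Neighbors in this order did not differ beyond their spread. In mutant CH the order was *Pde1b* (8.79 ± 0.85), *Pde3b* (4.72 ± 0.45), *Pde4b* (3.77 ± 0.68), *Pde1a* (1.47 ± 0.22), *Pde10a* (1.43 ± 0.17), *Pde3a* (1.18 ± 0.52), *Pde1c* (1.18 ± 0.28), *Pde4d* (0.969 ± 0.37) and *Pde4a* (0.933 ± 0.31). There *Pde1b* stood apart from *Pde3b*, and *Pde4b* from *Pde1a*, in all embryos, while *Pde3b* and *Pde4b* overlapped, as did the 6 lowest genes. Both orders depend on the length used. By longest coding sequence, the wild-type phosphodiesterase share of *Pde1c* was 2.95%, above *Pde4b* at 2.62% and *Pde4a* at 1.08%. In mutant CH the share of *Pde4b*, 6.47%, then exceeded that of *Pde3b*, 4.68%. Mutant *Pde1c*, at 8.55 to 13.9 CPM per coding kb, then lay apart from *Pde4a*, at 1.85 to 3.87.

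Among the enzymes that make the nucleotides, 1 gene changed. Of 10 adenylyl cyclases, all measurable, *Adcy6*, a calcium-inhibited cyclase, fell, and the other 9 did not pass. *Adcy6* was at 24.6, 26.7, 21.1, 22.2 and 24.2 CPM in wild-type and at 16.4, 14.7, 17.5, 20.9 and 15.5 CPM in mutant CH, a log2 fold change of -0.48 (SE 0.12, FDR = 0.0606, edgeR). The groups did not overlap, although mutant embryo 4 came close to wild-type embryo 3. The call was lost without wild-type embryo 1 or 2 or mutant embryo 2 or 5, with an FDR of 0.125 to 0.135. *Adcy1* (13.6 ± 4.11 and 12.2 ± 4.30 CPM, FDR = 0.813) and *Adcy7* (13.1 ± 1.74 and 15.3 ± 3.04 CPM, FDR = 0.499) were the next most abundant. The median log2 fold change of the cyclase list was -0.15, against -0.005 over all genes tested. Of 11 guanylyl cyclases and natriuretic peptide receptors, 7 were measurable and 0 passed by edgeR or DESeq2, with 0 at an unadjusted p under 0.05, among them the most abundant, *Gucy1a2*, at 24.2 ± 2.19 and 27.7 ± 4.54 CPM (FDR = 0.465), *Npr2* (FDR = 0.940) and *Gucy1a1* (FDR = 0.442).

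The transducers and effectors of cAMP did not pass the threshold either. Of 7 measurable G protein alpha subunits, 0 passed by edgeR or DESeq2, with 0 at an unadjusted p under 0.05, including *Gnao1* (272 ± 40.6 and 315 ± 22 CPM, FDR = 0.310), *Gnai2* (289 ± 33.9 and 254 ± 44.9 CPM, FDR = 0.482) and *Gnai3* (228 ± 17.7 and 222 ± 14.4 CPM, FDR = 0.861). *Gnas*, which encodes the stimulatory subunit, shares exons with several imprinted transcripts, and its count of about 11.5 CPM in wild-type CH is uncertain. Of 16 measurable genes of protein kinase A and other cAMP effectors, 0 passed by edgeR, with 1 at an unadjusted p under 0.05. That gene, *Prkaca*, at 58.8 ± 6.42 and 45.2 ± 7.21 CPM (FDR = 0.118), was called by DESeq2. The other catalytic subunit gene, *Prkacb*, was at 127 ± 10.2 and 121 ± 11.7 CPM (FDR = 0.758), and the regulatory subunit genes *Prkar1a* (FDR = 0.805) and *Prkar2a* (FDR = 0.744) were at similar levels in both groups. Both cGMP-dependent kinase genes, *Prkg1* (18.5 ± 3.19 and 18.5 ± 2.82 CPM, FDR = 0.994) and *Prkg2* (FDR = 0.698), failed to pass by edgeR and DESeq2, with 0 at an unadjusted p under 0.05.

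Anchoring proteins hold protein kinase A and phosphodiesterases together at 1 place in the cell. Of 22 measurable anchoring and partner genes, *Akap8*, a nuclear anchoring protein, rose, and 21 did not pass by edgeR. 6 had an unadjusted p under 0.05, and DESeq2 called 3, *Akap8* with *Akap6* and *Akap9*. *Akap8* was at 102.2, 102.1, 102.5, 105.7 and 103.0 CPM in wild-type and at 119.9, 124.7, 124.2, 126.5 and 119.0 CPM in mutant CH. The groups did not overlap, the log2 fold change was small at 0.25 (SE 0.06), and the FDR was 0.0447 (edgeR). *Akap6* was at 60.2 ± 11.2 and 41.6 ± 9.54 CPM, a log2 fold change of -0.53 (FDR = 0.116, edgeR). The *Akap8* call was lost without wild-type embryo 2 (FDR = 0.105) or mutant embryo 4 (FDR = 0.112). Abundant genes of this list included *Akap9*, at 800 ± 82.1 and 1081 ± 240 CPM (FDR = 0.116, edgeR), and *Calm2*, which encodes calmodulin, the activator of PDE1 enzymes (FDR = 0.543).

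At the transcriptional end of the pathway, 0 of 8 CREB family factors and coactivators passed by edgeR or DESeq2, with 0 at an unadjusted p under 0.05 and with *Creb1* at 223 ± 17.3 and 229 ± 13.1 CPM (FDR = 0.843), *Crebbp* at 543 ± 28.0 and 574 ± 56.4 CPM (FDR = 0.649) and *Ep300* at 396 ± 35.9 and 413 ± 32.9 CPM (FDR = 0.760). Among genes that CREB is known to activate, 13 of 14 were measurable and 2 fell by edgeR, with a median log2 fold change of -0.43, while DESeq2 called 4, these with *Sik1* and *Sst*. Both that fell encode orphan nuclear receptors. *Nr4a2* was at 52.7, 62.5, 33.2, 69.4 and 68.1 CPM in wild-type and at 23.0, 25.5, 17.1, 23.9 and 13.5 CPM in mutant CH, without overlap (log2 fold change -1.47, SE 0.21, FDR = 0.0028, edgeR). *Nr4a3* was at 65.5, 80.3, 31.2, 52.8 and 70.2 CPM in wild-type and at 26.0, 37.5, 34.7, 35.6 and 31.3 CPM in mutant CH, where wild-type embryo 3 lay among the mutants (log2 fold change -0.86, SE 0.20, FDR = 0.0451, edgeR). The *Nr4a3* call was lost without wild-type embryo 1 or 2 or mutant embryo 5, with an FDR of 0.102 to 0.105. With the choroid plexus level as a covariate its log2 fold change was -0.15 (FDR = 0.849, edgeR), and with the *Xist* level it was -0.99 (FDR = 0.371, edgeR). The next most abundant listed target, *Sik1*, was at 23.5 ± 3.69 and 15.3 ± 5.58 CPM (FDR = 0.190, edgeR). *Sst*, which encodes the neuropeptide somatostatin, differed in the opposite direction at a low level, from 0.352 ± 0.40 to 2.20 ± 2.83 CPM (log2 fold change 2.60, FDR = 0.173, edgeR).

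Over all 9 lists, 94 of 108 genes were measurable, 1 rose and 3 fell, which is 4.26% and close to the 4.02% of all genes. The calls of all 4, *Adcy6*, *Akap8*, *Nr4a2* and *Nr4a3*, were lost with either covariate, the *Xist* or the choroid plexus level. Another 14 were too low to be tested. The median log2 fold change of the 94 was -0.09.

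**Figure D4:**
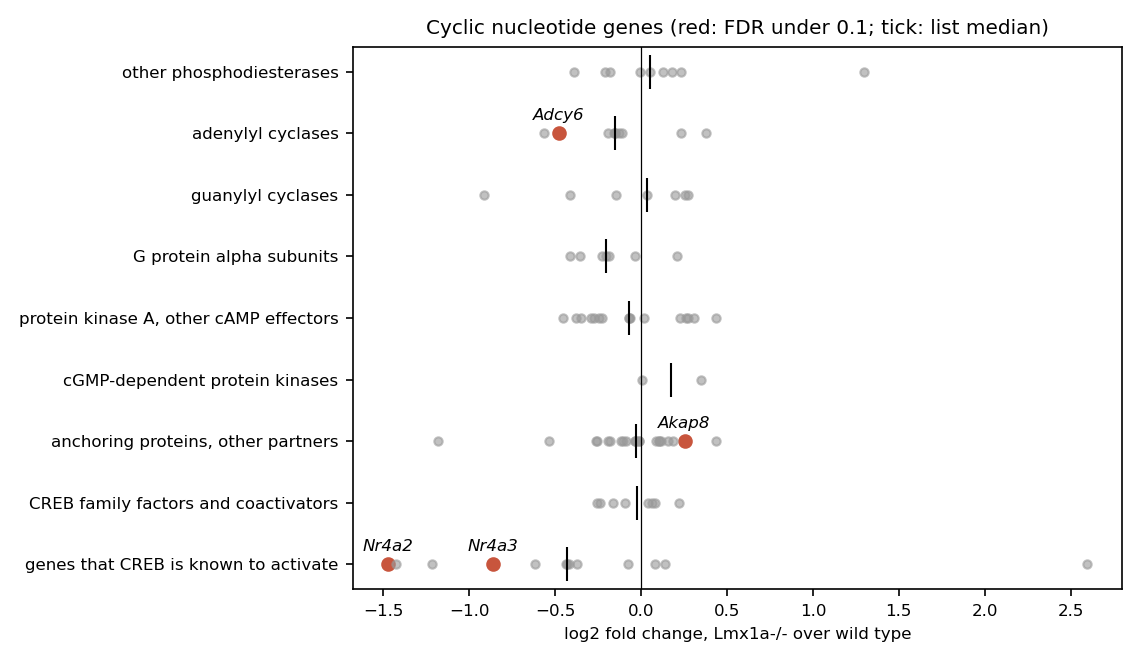
Log2 fold change of *Lmx1a*-/- over wild-type CH for the 94 measurable genes of the 9 lists of cyclic nucleotide signaling, 1 dot per gene, with red dots for an FDR under 0.1 and a black tick for the list median. The labeled genes *Adcy6*, *Akap8*, *Nr4a2* and *Nr4a3* are the 4 that passed, and the medians lie between -0.43 and 0.17.

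Other cell types in the captured tissue differed along with these genes. The sum of 12 choroid plexus genes was 405, 439, 90.5, 189 and 378 CPM across the wild-type group and 122, 134, 185, 189 and 174 CPM across the mutants, in the order of embryo number. Of 11 tested, 10 had a lower mean in the mutants and 3 passed the threshold. *Pde1a* was lowest within the wild-type group in embryos 3 and 4, at 13.8 and 16.1 CPM. These also had the least choroid plexus transcript. In the same pair of wild-type embryos *Pde4b* was at 12.3 and 14.6 CPM. The choroid plexus sums of the mutants lay between those of this pair or beside the higher one. As the genotypes do not overlap for *Pde1a* or *Pde4b*, any wild-type embryos picked by choroid plexus content would lie apart from the mutants. With the choroid plexus level as a covariate the log2 fold change of *Pde1a* was -0.62, that of *Pde1b* was 0.70 and that of *Pde4b* was 1.68.

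**Figure D5:**
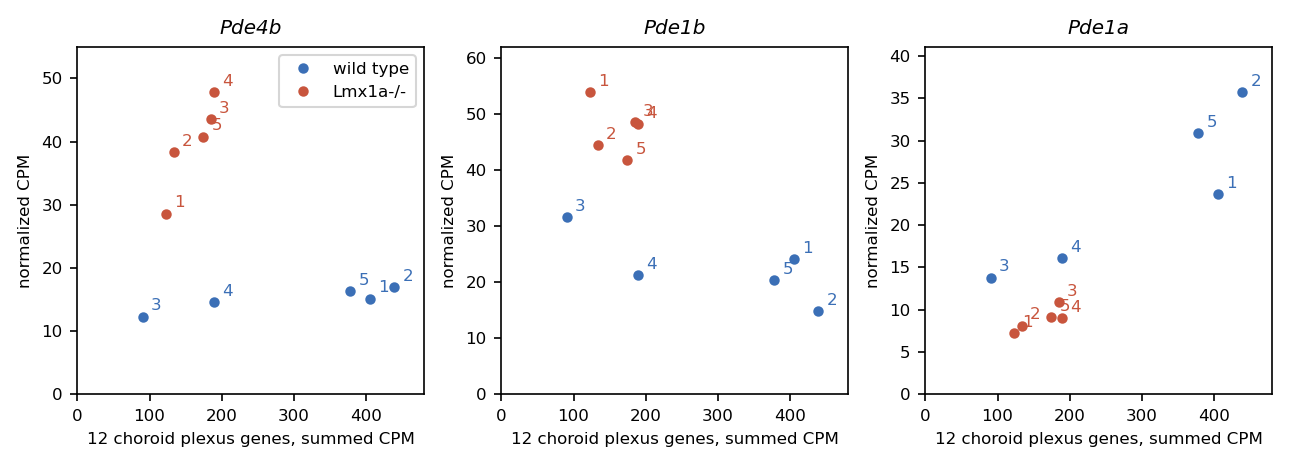
Normalized CPM of *Pde4b*, *Pde1b* and *Pde1a* against the summed CPM of 12 choroid plexus genes in each library, blue for wild type and red for *Lmx1a*-/-, numbered by embryo. Sums of 90.5 to 189 CPM hold wild-type embryos 3 and 4 and all mutants. The genotypes do not overlap for any of these genes, so they are also apart within that range.

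Transcripts of the neighboring cortical and hippocampal neuroepithelium moved the other way, with 552 to 967 CPM summed over 8 genes in wild-type and 936 to 1259.7 CPM in mutant CH, and with *Emx2* and *Fezf2* past the threshold as higher. Wild-type embryo 3, with the highest sum of its group, also had the highest *Pde1b* and *Pde10a* of its group, but the lowest *Pde4b*. Summed Cajal-Retzius cell markers were 296 to 495 CPM in wild-type and 197 to 286 CPM in mutant CH. Of the 6 tested, 3 passed the threshold as lower, 1 as higher and 2 did not pass. The part of these cell types in the differences of *Pde1a*, *Pde1b*, *Pde4b*, *Nr4a2* and *Nr4a3* was not tested beyond the values above.

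The 5 genes whose pattern over the 10 libraries was most like that of *Pde4b*, by the root mean square difference of centered log2 CPM among 16714 genes of at least 1 CPM, were *Gm38260* (0.23), *A930005G22Rik* (0.23), *Bmf* (0.24), *Cubn* (0.25) and *Ccn2* (0.26), against a median of 0.78 for all candidates. *Bmf* encodes a pro-apoptotic BH3-only protein, *Cubn* an endocytic receptor and *Ccn2* a matricellular protein. The pattern matched includes the genotype difference of *Pde4b*, so a higher level in the mutants follows from the choice and is not a separate result. *Cubn* went from 5.25 ± 1.14 to 17.6 ± 4.60 CPM and *Ccn2* from 7.70 ± 1.20 to 17.5 ± 0.86 CPM. Among the members, *Pde1b* (0.45) and *Pde3b* (0.56) were the nearest to *Pde4b*, and *Pde3a* (1.48) and *Pde1a* (1.40) the farthest. The direction of the genotype difference enters this order too.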

How the data were processed

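Per the labels and the study's methods, the authors purified RNA from laser-captured CH with a Pico Pure kit, made SMARTER libraries, used Trimmomatic for trimming, STAR 2.7.1a for alignment to GRCm38 and HTSeq 0.11.2 for a read count per gene. The deposited table holds these raw counts. The strand setting is not given in the sources used here, so reads of overlapping genes on opposite strands cannot be told apart. Of 52508 rows, 281 exact repeats were dropped.

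The filter kept genes that reached 10 counts in 3 or more libraries. They were tested with edgeR's quasi-likelihood test (R 4.3.3, edgeR 4.0.16, limma 3.58.1), with TMM scaling, a trended dispersion, no covariate and a Benjamini-Hochberg FDR under 0.1 over all genes tested. SE is the log2 fold change divided by the square root of F. Levels per length used merged exons of GENCODE M21. On data simulated for this comparison with 20921 genes, 78% of 200 changed genes were recovered and 10.3% of calls were false. Promoters are RefSeq windows.

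The genes and lists were chosen with earlier results of these data known. Named were all 10 members, the listed genes past the threshold, up to 3 of the highest CPM per list, and the 5 genes most like *Pde4b*. Some genes that this rule names are left out here. A gene singled out otherwise, such as *Twist1*, *Pde6c*, *Prkaca*, *Akap6*, *Sst* or *Sik1*, was chosen after its values were seen. Alternatives were DESeq2 1.42.0, other scaling and filters, a replicate block, covariates for *Xist* and choroid plexus, libraries with Y-linked transcripts only, an FDR of 0.05, and each library left out. The newer dispersion method of edgeR (legacy = FALSE) was chosen after seeing the data. P-values set the genotype difference against the spread between embryos. No protein sequences were used here.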

Additional observations from a re-analysis of the deposited data

Results flagged for a closer look

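Over 38 groups of 5 libraries, 5 had 1 library whose gap to the nearest other exceeded the critical 0.71 of the group's range, where chance gives about 1 in 20 groups. *Pde3a* in wild-type embryo 4 was at 112 CPM, against 15.5 to 31.1 CPM in the other wild-type embryos. *Pde4c* was at 0.104 CPM in wild-type embryo 4 and at 0.138 CPM in mutant embryo 4, against 0 in the other libraries, which rests on a few reads. *Akap8* in wild-type embryo 4 was at 105.7 CPM, against 102.1 to 103.0 CPM. *Bmf* in wild-type embryo 5 was at 6.05 CPM, against 8.35 to 9.05 CPM.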

How the results depend on the processing

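The log2 fold changes of *Pde4b*, *Pde1a*, *Pde1b*, *Pde3a* and *Pde3b* kept their sign under all 20 alternatives, those of *Pde1c* and *Pde4d* under 18, of *Pde10a* under 16 and of *Pde4a* under 13. *Pde4b*, 1.40, was 1.68 with the choroid plexus covariate and 1.39 to 1.41 under the other 9 alternatives apart from leaving out libraries, and 1.33 to 1.5 with each library left out. The difference in its PDE4 share, 26.7 percentage points, was 23.1 to 28.6 with each library left out. *Pde1c*, 0.42, was -0.07 with the *Xist* covariate and 0.88 with the choroid plexus covariate. In the same fits *Pde4a*, -0.01, was -0.62 and 0.55, and *Pde4d*, -0.36, was 0.13 and -0.82. Counts of genes past the threshold depended on the fit. Over all genes, 373 were higher and 497 lower. DESeq2 gave 790 and 976, the *Xist* covariate 6 and 30, the choroid plexus covariate 100 and 67, libraries with Y-linked transcripts 40 and 90 (with the 1 wild-type library assumed to vary like the mutants), an FDR of 0.05 197 and 251, and each library left out 190 to 470 and 261 to 589, lowest without mutant embryo 4. Among the pathway lists, 1 was higher and 3 lower. DESeq2 gave 3 and 7, library size scaling 2 higher, no filter 2 higher, the 1 CPM filter 5 lower, the newer dispersion method 3 higher, the *Xist* covariate 0 and 0, the choroid plexus covariate 0 and 0, libraries with Y-linked transcripts 0 higher, and each library left out 0 to 2 and 1 to 5. Among the members, 3 were higher and 1 lower, a description only, as the set was chosen on this contrast. The *Xist* covariate gave 0 and 0, the choroid plexus covariate 1 and 0, and each library left out 2 to 3 and 1 to 2. *Nr4a2* lost its call with the *Xist* (FDR = 0.199) and choroid plexus (FDR = 0.159) covariates and among libraries with Y-linked transcripts (FDR = 0.105), all edgeR, and *Adcy6* and *Akap8* lost theirs in those fits, while *Nr4a3*, at -0.15 with the choroid plexus covariate, lost its call with both covariates. The cause of these changes was not tested. Embryo numbers do not pair the genotypes: deviations of same-numbered libraries correlated at -0.10 to 0.01, and 0 of 10 libraries correlated best with their own number. A replicate block gave 248 higher genes over all, 0 higher among the pathway lists and 2 lower members, and *Pde4b* at 1.39, and the calls of *Adcy6* (FDR = 0.146) and *Akap8* (FDR = 0.137, both edgeR) were lost.

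*Pde4c* and the 14 listed genes not tested had too few reads, and absent expression was not told apart from limited depth. The confounding of sex-linked transcripts with genotype and the uneven choroid plexus content limit every genotype difference given here.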
